A study of Mus musculus with 6 samples.

Results

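The regions described here are the open chromatin regions of mouse interferon response and antigen presentation genes, 89 of the 52957 regions measured. They were chosen by gene symbol alone: interferons (Ifn), interferon regulatory factors (Irf), STAT factors, interferon-induced genes (Ifi, Ifit, Ifitm, Isg, Oas, Mx2, Usp18, Bst2), guanylate-binding and related GTPases, the sensors Rigi, Ifih1 and Sting1, Parp10, and the H2, B2m and Tap genes of antigen presentation. The 89 regions belonged to 71 genes, all annotated as protein coding. Of these, 60 regions (58 genes) were promoters, with the region's centre at most 1000 bp from the annotated start site, and 29 (25 genes) lay farther away, up to 4527 bp.

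Accessibility was measured by ATAC-seq, which reads out where the transposase Tn5 can insert adapters into chromatin. The cells were NIH3T3, a mouse fibroblast line, and all 6 libraries came from cells with a T3H48 hammerhead ribozyme, an RNA that cuts itself, built into intron 3 of Actg1, the gamma-actin gene. The ribozyme was active in 3 libraries and inactive in 3, so the control cells carry the ribozyme insertion too. No region annotated to Actg1 was analysed here. The labels name stable, genotyped lines and do not say how many lines or clones a group holds, nor whether its libraries are separate cultures: p-values measure only the spread between these libraries, and ribozyme activity and line identity cannot be told apart.

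Interferons are secreted proteins that warn cells of infection. Type I interferons bind the receptor chains Ifnar1 and Ifnar2, and interferon gamma binds Ifngr1 with its partner chain; both receptors activate STAT factors, which act with IRF9 at interferon-stimulated response elements (ISRE) or without it at gamma-activated sites (GAS). Among the genes switched on are antiviral effectors and the class I pathway, in which peptides carried by Tap1 and Tap2 are loaded onto H2-K1 or H2-D1 with the light chain B2m; fibroblasts respond to interferon in this way.

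The letters of the RefSeq promoters (build GRCm38.p6, matched by symbol or gene identifier for 58 of 71 genes) show which of these elements the members hold. The build differs from mm39, the build of the measured regions, so promoters were joined to regions by gene and not by coordinate. In the 250 bases before each start site, the ISRE core (GAAA, any 2 bases, GAAA, which reads TTTC, any 2 bases, TTTC on the other strand) was found for 21 of 58 member genes (36.2%) and for 3.46% of the 27025 genes of the promoter table. The GAS core TTCNNNGAA was found for 12 of 58 (20.7%), against 8.13% of all genes. A match describes the letters only. In the Ifi200 family, DNA-binding proteins encoded side by side on chromosome 1, Ifi203, Ifi205, Ifi207, Ifi211 and Ifi214 held the core before their start sites. Ifi209 did not, and Ifi204 had no entry in the promoter table. Windows of 4 genes that held the core are shown because their regions moved in different directions. Each has up to 20 bases on either side and the core in capitals.
Ifi203, chr1:173942498-173942547, minus strand: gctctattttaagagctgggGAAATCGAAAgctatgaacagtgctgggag
Ifi207, chr1:173741821-173741870, minus strand: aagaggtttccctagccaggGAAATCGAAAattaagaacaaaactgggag
Ifi211, chr1:173913054-173913103, minus strand: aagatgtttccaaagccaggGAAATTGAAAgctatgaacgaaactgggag
Ifi205, chr1:174031860-174031909, minus strand: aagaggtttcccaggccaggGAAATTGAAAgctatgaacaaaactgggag
The same 10 letters stood at Ifi203 (at the second of its promoters in the table) and Ifi207, whose promoter regions rose and fell, respectively, in active libraries; the values follow below. The 250 bases before the start of H2-K1 and Stat5a are shown because these were the promoters with the largest rise and the largest fall. In H2-K1 the capitals mark a short-spaced variant of the ISRE core (GAANNGAAA or TTTCNNTTC), added to the search after the values were seen. It was found for 7.3% of the 27025 genes in the table, and for 12 of 58 member genes (20.7%). The same letters, TTTCACTTC, also stood before H2-D1 and H2-M3, whose promoters did not pass. Of 9 tested member promoters of genes with the variant, 1 (H2-K1) rose and 3 fell, against 21.0% and 37.6% of all promoters. The variant can overlap an ISRE core elsewhere, but neither the H2-K1 nor the Stat5a promoter held the letters of the ISRE or GAS core searched here. Lack of these letters does not show that a response element is absent.
H2-K1, chr17:34000348-34000597, minus strand: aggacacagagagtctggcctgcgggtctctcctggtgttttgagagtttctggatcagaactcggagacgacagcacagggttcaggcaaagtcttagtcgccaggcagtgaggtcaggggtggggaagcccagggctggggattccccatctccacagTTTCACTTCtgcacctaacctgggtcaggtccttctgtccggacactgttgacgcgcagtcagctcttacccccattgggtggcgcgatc
Stat5a, chr11:100859406-100859655, plus strand: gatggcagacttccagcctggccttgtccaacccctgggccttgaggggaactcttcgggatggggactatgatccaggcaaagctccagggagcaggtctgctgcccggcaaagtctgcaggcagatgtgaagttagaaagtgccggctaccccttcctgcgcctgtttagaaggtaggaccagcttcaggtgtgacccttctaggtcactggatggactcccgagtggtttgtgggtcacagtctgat
The light chain gene B2m and the effector gene Isg15, both classical interferon targets, carried the core as follows, with every match in capitals; the region measured for Isg15 lay 2600 bp from its start site.
B2m, chr2:122147528-122147577, plus strand: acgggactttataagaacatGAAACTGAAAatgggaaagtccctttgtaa
Isg15, chr4:156200855-156200916, minus strand: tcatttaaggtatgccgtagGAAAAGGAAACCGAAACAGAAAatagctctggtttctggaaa

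The cell type labels were checked first. Of 16 fibroblast marker genes, 12 had promoter regions, with a sum of 3190 to 3388 normalised reads per active and 4147 to 4328 per inactive library. Pdgfra, Thy1, Lum and Dcn had no promoter region in the data used here. Of 14 white blood cell markers, only Cd68 had one (51 to 69 reads against 51 to 57), and of 8 epithelial markers Krt8 and Krt19 (175 to 198 against 120 to 132). The endothelial pair Erg and Kdr, of 6 listed, summed to 115 to 138 in active and 23 to 31 in inactive libraries. So the fibroblast sum was lower, and the epithelial and endothelial sums higher, in every active library. The part of this in the results was not tested. Single regions did not all follow the sums in the limma fit described below. Of 14 fibroblast promoter regions 11 fell and 2 rose (37.6% and 21.0% of all promoters). Of 2 epithelial regions 1 rose (log2 fold change 0.78) and 1 did not pass (-0.08), and both endothelial regions rose. Values are reads per region scaled by the authors to a common depth, here called normalised reads, and libraries summed to 6433944 to 6548535 of them. Before scaling, active libraries held an estimated 3710000 to 6840000 reads and inactive ones 7330000 to 8960000, so every active library was shallower.

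Interferon and antigen presentation promoters fell more often than they rose in active cells. Of 59 tested member promoters, 24 fell, 8 rose and 27 did not pass the threshold (limma over 51253 regions with a mean of at least 10, Benjamini-Hochberg adjusted p under 0.05). Across all 9650 tested promoters with a gene symbol, 37.6% fell and 21.0% rose, so the members' 40.7% lower was near the background and their 13.6% higher below it. The median log2 fold change, on the scale of log2(normalised reads + 1), was -0.15 for members and -0.11 for all these promoters. Large changes were few: 1 member promoter rose and 2 fell by at least 2-fold, against 2.81% and 2.20% of all promoters. In 7 of the 59 every active library lay above every inactive one and in 27 below, against 21.8% and 39.2% of all promoters. In bulk libraries, fewer cells with a region open and less opening per cell cannot be told apart.

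Member regions beyond promoters showed a like split. Of 28 tested, 11 fell, 3 rose and 14 did not pass, against 32.5% lower and 25.8% higher among 4167 other regions with a symbol. By at least 2-fold, 1 rose and 1 fell (9.55% and 5.69% of all such regions), and 2 had all active libraries above and 13 all below the inactive ones (26.7% and 34.7%). Their median log2 fold change was -0.28, against -0.10 for all such regions. Summed over all 89 members, active libraries held 13374 to 13766 and inactive libraries 15001 to 15441 normalised reads, with no overlap between groups. The same sum over all regions with a symbol was not taken. Those regions also had a median log2 fold change below 0 (-0.10), against -0.17 for all tested members. Compared with the median of its 10 Mb stretch of chromosome, a setting chosen after the data were seen, 6 member promoters were higher and 16 lower (12.0% and 24.6% of all promoters), and 2 other regions were higher and 10 lower (23.3% and 25.3%).

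**Figure D1:**
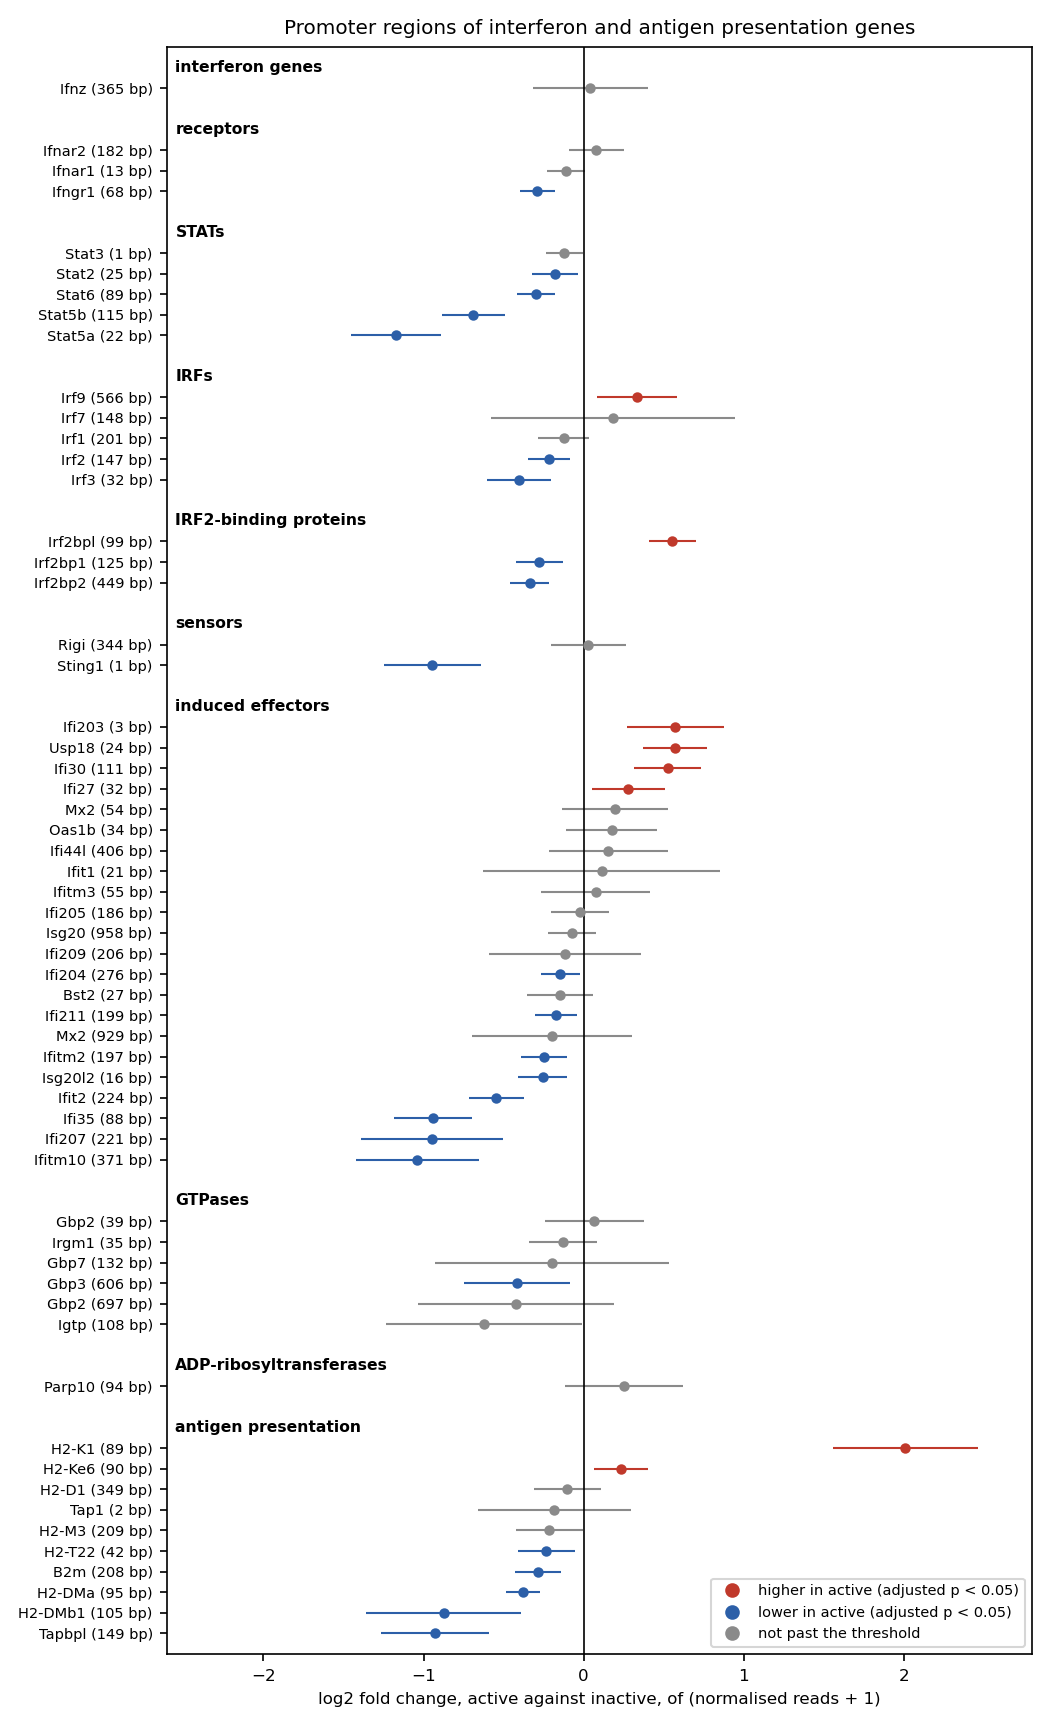
Log2 fold change (x axis, active against inactive, of normalised reads + 1) of 58 of the 59 tested member promoters, ordered by role, with the distance to the start site in brackets; bars are 95% confidence intervals from limma. Of these, 8 points are red (higher) and 24 blue (lower), and H2-K1 stands apart at 2.01.

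Among the ligands, 3 interferon genes had a region, all in the interferon cluster of chromosome 4. The region 3045 bp from Ifna13, a type I interferon gene, rose: it held 65, 72 and 93 normalised reads in active replicates 1 to 3 and 42, 46 and 46 in inactive replicates 1 to 3 (limma log2 fold change 0.75, SE 0.16, adjusted p = 8.78e-05). All active libraries lay above all inactive ones. The region of Ifne, an interferon known from epithelia of the reproductive tract, held 23, 16 and 24 reads against 17, 12 and 12 and did not pass (0.58). The Ifnz promoter, at 38, 53 and 43 against 42, 42 and 45, did not pass either (0.04), and these groups overlapped. Of 12 tested regions between these members on the chromosome, 3 were higher and 0 lower by limma, with a median of -0.03. Over all 51253 tested regions 30.9% were higher and 29.2% lower.

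Of 3 receptor promoters 1 fell and 2 did not pass. The promoter of Ifngr1, the ligand-binding chain of the interferon gamma receptor (chromosome 10, 19467202 to 19468055), held 541, 553 and 552 reads in active and 655, 652 and 706 in inactive libraries. It fell by 0.29 on the log2 scale (adjusted p = 1.85e-05 by limma), with no overlap between groups. The type I receptor gene Ifnar1 held 496, 539 and 549 against 587, 566 and 556 reads (log2 fold change -0.11, 95% confidence interval -0.23 to 0.01). Its partner Ifnar2 held 244, 216 and 205 against 210, 211 and 207 (0.08, interval -0.09 to 0.25). Per kb of region, inactive levels were 785.7 for Ifngr1, 728.5 for Ifnar1 and 201.9 for Ifnar2. The median of the window around Ifngr1 was -0.20, and relative to it the promoter did not pass (-0.10, adjusted p = 0.123 by limma).

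STAT factors carry the signal of cytokine receptors to DNA. Of 7 tested STAT regions 5 fell by limma, those of Stat2, Stat5a (2 regions), Stat5b and Stat6. Over all tested regions with a symbol 36.0% fell, and the difference from this share was not tested. The largest fall was at Stat5a, a mediator of prolactin, growth hormone and interleukin signals (chromosome 11, 100749885 to 100750425). Its promoter held 46, 48 and 51 reads in active and 96, 116 and 120 in inactive libraries (48.3 ± 2.52 against 110.7 ± 12.9, SD, n = 3), or 2.29-fold lower (limma log2 fold change -1.17, SE 0.14, adjusted p = 1.97e-09). The highest active value, 51, lay far below the lowest inactive value, 96. A region 1069 bp from the same start site fell from 164, 175 and 174 to 111, 88 and 121 (-0.69). Its neighbour and close relative Stat5b, with a promoter 7487 bp before that of Stat5a, held 122, 115 and 121 against 182, 204 and 194 (limma -0.69, SE 0.10, adjusted p = 8.89e-08).

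Log2 fold changes at the other STAT promoters described here were smaller. Stat2, a partner of IRF9, fell by 0.18 (303, 295 and 280 against 339, 342 and 313; adjusted p = 0.0309 by limma), but the call was lost without active replicate 3 (-0.15) and without inactive replicate 1 (-0.16) or 2 (-0.15), and relative to its window the difference was -0.01. Stat6, which acts downstream of interleukin 4, fell by 0.30 with no overlap between groups (423, 413 and 416 against 502, 514 and 524) and did not pass relative to its window (-0.13, adjusted p = 0.0685 by limma). Stat3 did not pass (-0.12), at 600, 659 and 576 against 637, 706 and 651; relative to its window (median -0.33) it was called higher (0.18, adjusted p = 0.00545 by limma).

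Interferon regulatory factors, the transcription factors that switch on interferon and its targets, split. The promoter of Irf3, which is activated by sensors of viral nucleic acid, held 148, 147 and 121 reads in active and 191, 175 and 183 in inactive libraries and fell by 0.40 (adjusted p = 0.000589 by limma). The promoter of Irf2, known as a repressor of interferon targets, fell by 0.22 (394, 357 and 389 against 443, 424 and 457), a call lost without trend and robust settings (adjusted p = 0.0792 by limma). Irf9, the DNA-binding partner of STAT2, rose by 0.33 (105, 111 and 99 against 85, 74 and 91; adjusted p = 0.0198 by limma). That call was lost without active replicate 2 (0.29) or inactive replicate 2 (0.25). Irf1 held 227, 253 and 253 against 258, 273 and 268 and did not pass (-0.13). Irf7, at 21, 7 and 12 against 12, 14 and 7 reads, was too low to resolve, with an interval from -0.58 to 0.95.

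Of the IRF2-binding proteins, corepressors named for binding IRF2, the Irf2bpl promoter on chromosome 12 rose and the promoters of Irf2bp1 and Irf2bp2 fell. Irf2bpl held 422, 401 and 458 reads in active and 271, 319 and 282 in inactive libraries (limma log2 fold change 0.55, SE 0.07, adjusted p = 1.55e-08). The median of its 10 Mb window was nearly as high (0.45), and relative to it the promoter was at 0.07 and did not pass. Irf2bp2 fell by 0.34 (518, 641 and 589 against 732, 755 and 715), and by 0.19 relative to its window, and Irf2bp1 fell by 0.28 (286, 272 and 280 against 345, 318 and 354), which was lost relative to its window (-0.09).

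Among sensors of foreign nucleic acid, Sting1 fell and Rigi did not pass. STING, made by Sting1, relays the signal of DNA in the cytosol. Its promoter on chromosome 18 held 52, 57 and 39 reads against 86, 97 and 102 (49.3 ± 9.29 against 95 ± 8.19, SD, n = 3), or 1.93-fold lower (limma log2 fold change -0.95, SE 0.15, adjusted p = 9.4e-07). The window around it had a median of -0.41, and relative to that the promoter was still called lower (-0.55, adjusted p = 0.00206 by limma). The promoter of Rigi, the RNA sensor RIG-I, held 113, 108 and 109 against 99, 107 and 118 reads (0.03, interval -0.20 to 0.26). Ifih1, the gene of the RNA sensor MDA5, was below the tested range, at 6, 7 and 5 against 11, 4 and 8.

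**Figure D2:**
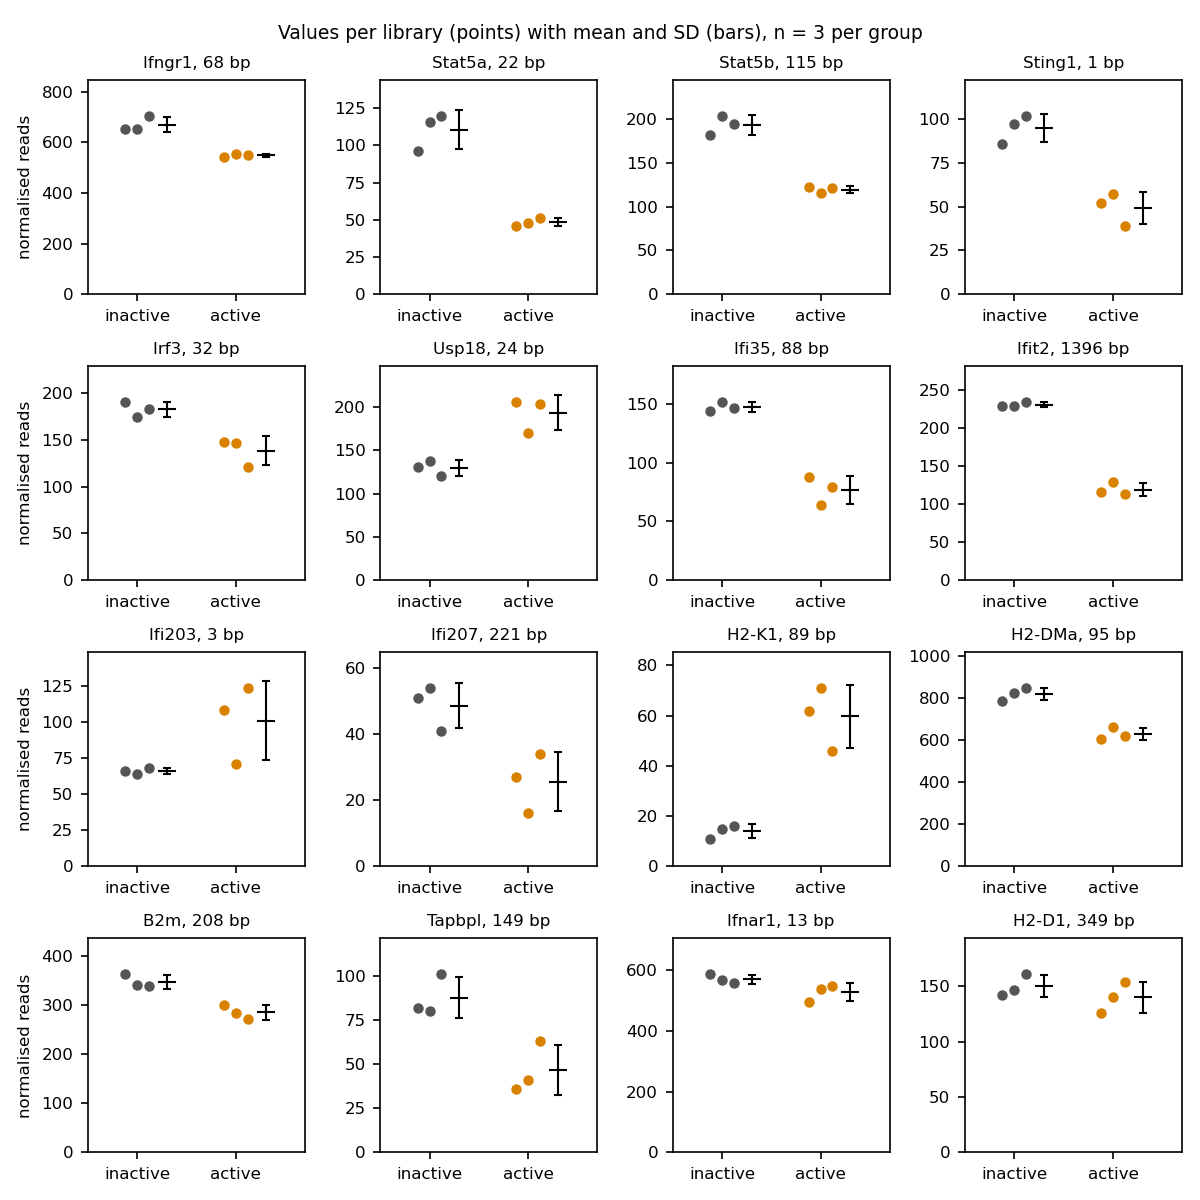
Normalised reads per library (y axis, from 0) of 16 member regions, with the distance to the start site in each title; grey points are inactive and orange points active libraries, and bars give the mean and SD (n = 3 per group). H2-K1, Usp18 and Ifi203 lie higher in active libraries, the 11 regions that fell lie lower with no overlap, and Ifnar1 and H2-D1 did not pass the test.

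Interferon-induced effectors, the largest role with 36 regions of 27 genes, moved both ways: of 35 tested, 15 fell (42.9%), 6 rose (17.1%) and 14 did not pass, near the split over all regions with a symbol (36.0% lower, 22.5% higher). The 4 promoters that rose belonged to Usp18, Ifi203, Ifi30 and Ifi27. Usp18, which removes ISG15 from proteins and blunts signalling at the type I receptor, held 206, 170 and 204 reads in active and 131, 138 and 120 in inactive libraries (1.49-fold; limma log2 fold change 0.57, SE 0.10, adjusted p = 5.27e-06). The median of its 10 Mb window was -0.32, but the nearest region on either side also rose, the Pex26 promoter 60537 bp before it by 0.36 and a region without a symbol 25818 bp after it by 0.46. Ifi30, a lysosomal thiol reductase that unfolds proteins for class II loading, rose at its promoter from 108, 117 and 118 to 182, 157 and 157 (0.53). Ifi27 rose by 0.28 (119, 131 and 139 against 106, 99 and 115) inside a window of chromosome 12 with a median of 0.54. Relative to that window it was called lower (-0.29), and its call was lost without active replicate 3 (0.23) and without inactive replicate 1 (0.28) or 2 (0.23).

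The strongest rise outside promoters was also on chromosome 12. The region 3773 bp from Ifi27l2b, a relative of Ifi27, held 32, 34 and 38 reads in active and 11, 8 and 8 in inactive libraries (3.85-fold; limma log2 fold change 1.84, SE 0.28, adjusted p = 2.75e-07). It exceeded its window, with 1.27 relative to it (adjusted p = 0.000165 by limma). Next to it in the same direction were the Ifi27 promoter, 18839 bp before, and the Ppp4r4 promoter, 78510 bp after, which rose by 4.32. The region 3196 bp from Oasl1, an antiviral protein related to the 2′-5′ oligoadenylate synthetases, rose by 0.46 (50, 80 and 73 against 51, 47 and 46), with overlapping groups; the call was lost without active replicate 2 (0.33) or 3 (0.39) or inactive replicate 3 (0.43), and relative to its window it was 0.13.

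Among effectors that fell, all 3 regions of Ifit2, whose protein binds viral RNA and slows translation, were lower. The Ifit2 promoter held 191, 182 and 166 reads against 279, 267 and 242 (log2 fold change -0.55). The region at 1396 bp held 116, 129 and 113 against 229, 229 and 235 (limma -0.95, SE 0.09, adjusted p = 1.93e-11), and that at 2420 bp held 32, 30 and 24 against 62, 62 and 54 (-1.03). No active library reached an inactive one in any of the 3. The fall was larger at 1396 bp than at the promoter by 0.40 (adjusted p = 0.0334, limma on the log2 ratio of the regions) and at 2420 bp by 0.49 (adjusted p = 0.0174 by limma). Of 5 Ifit regions on chromosome 19, 4 fell in all; Ifit1, at 17, 11 and 9 against 9, 8 and 18, did not pass, and the fall of Ifit1bl2 (-0.50) was lost without active replicate 1 (-0.40) or 3 (-0.48) or without inactive replicate 2 (-0.34) or 3 (-0.55).

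Ifi35, whose protein pairs with the STAT-binding factor NMI, had a promoter at 88, 64 and 79 reads against 144, 152 and 147 (1.92-fold lower; limma log2 fold change -0.94, SE 0.12, adjusted p = 1.15e-08). It lies on chromosome 11, less than 1 Mb from Stat5a and Stat5b, with the Stat3 promoter between them. Of the 38 tested regions of other genes or no gene between Stat5b and Ifi35, 29 fell and 3 rose, with a median of -0.56, against -0.69 for the 5 member regions. Thus Stat5a, Stat5b and Ifi35 sat in a stretch where most regions fell. Relative to the 10 Mb window, whose median was -0.33, they were still called lower by limma: Stat5a at -0.87 (adjusted p = 1.51e-06), Ifi35 at -0.64 (adjusted p = 3.1e-05) and Stat5b at -0.39 (adjusted p = 0.000898). Ifitm10, a relative of the Ifitm proteins that keep viruses out of endosomes, fell at its promoter (33, 25 and 23 against 52, 59 and 57; limma -1.04, SE 0.19, adjusted p = 1.07e-05) with a window near 0 (-0.10). Its region at 1905 bp fell by 0.58, and that at 1497 bp, at 46, 78 and 76 against 74, 58 and 67, did not pass (-0.02).

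Several classical interferon-induced genes did not pass, and Isg15 fell. The region 2600 bp from Isg15, the ubiquitin-like modifier, held 33, 23 and 30 reads against 38, 45 and 57 and fell by 0.68 (adjusted p = 0.00382 by limma), a call lost without inactive replicate 3 (-0.53, adjusted p = 0.0575 by limma). Bst2, which tethers budding viruses, held 143, 145 and 129 against 137, 165 and 162 (-0.15) and did not pass. The 2 promoter regions of Mx2, an antiviral GTPase, held 52, 69 and 54 against 57, 50 and 45 (0.19) and 33, 16 and 23 against 24, 26 and 30 (-0.20); neither passed. Ifitm3, Oas1b, Ifi44l and Isg20 did not pass at any region. Ifitm1 had 1, 2 and 1 against 9, 6 and 8 reads, below the tested range. Of 7 GTPase regions, only the Gbp3 promoter fell (47, 48 and 38 against 62, 56 and 60; -0.42), and this was lost without active replicate 3 (-0.31) or inactive replicate 1 (-0.39) or 3 (-0.41). Both regions of Parp10, an ADP-ribosyltransferase, did not pass (0.25 and -0.09). Mx1, Rsad2, Tapbp and Ifngr2 were not analysed here.

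**Figure D3:**
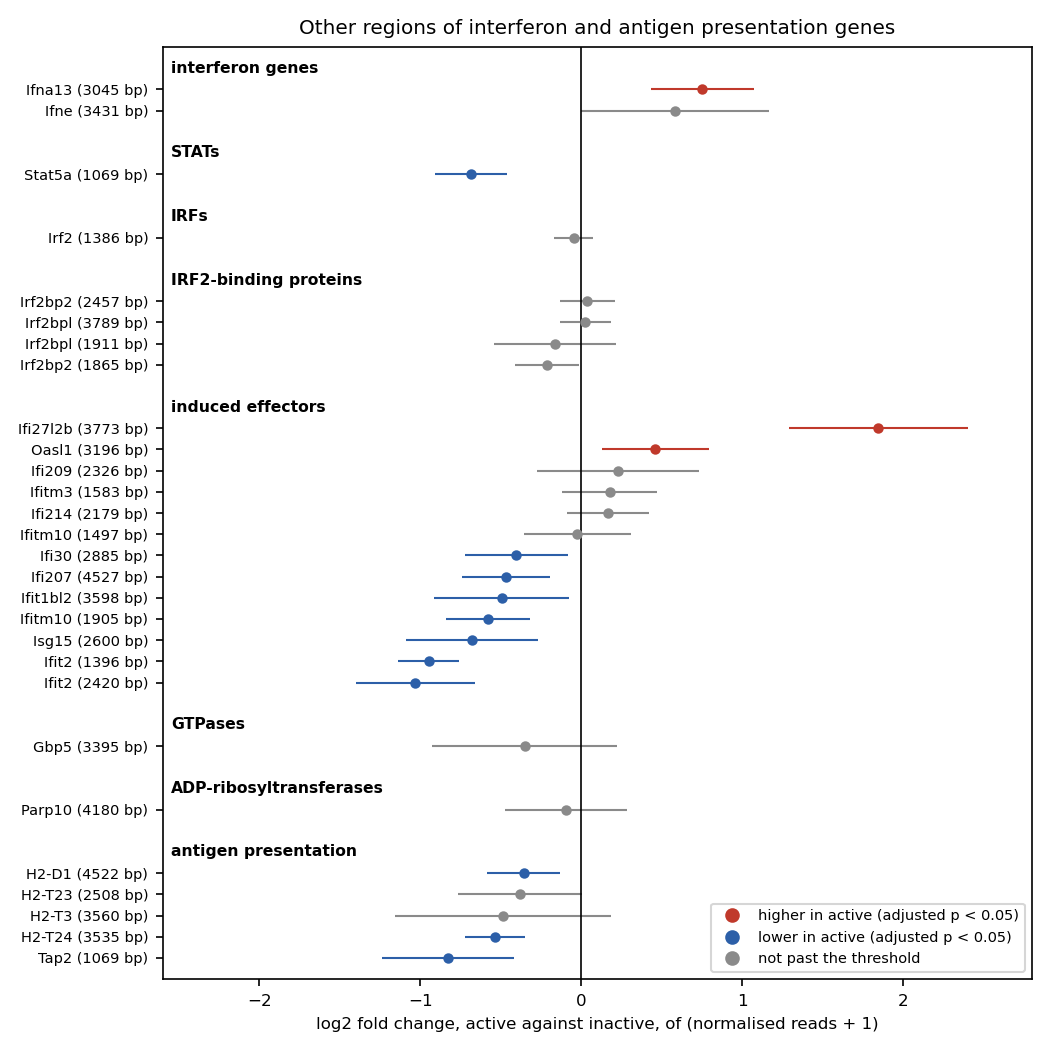
Log2 fold change (x axis, active against inactive, of normalised reads + 1) of the 28 tested member regions beyond 1000 bp, ordered by role, with 95% confidence intervals from limma. The region of Ifi27l2b is highest at 1.84 and that of Ifit2 at 2420 bp lowest at -1.03.

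The Ifi200 genes, 4 of whose ISRE windows are shown above, split. The Ifi203 promoter held 109, 71 and 124 reads in active and 66, 64 and 68 in inactive libraries (limma log2 fold change 0.57, SE 0.15, adjusted p = 0.00121), with active replicate 2 barely above the inactive values; without trend and robust settings limma did not call it (adjusted p = 0.0549). The Ifi207 promoter held 27, 16 and 34 against 51, 54 and 41 (limma -0.95, SE 0.22, adjusted p = 0.000291), and its region at 4527 bp fell by 0.47. Ifi205, whose window is also shown, held 187, 177 and 171 against 184, 172 and 188 and did not pass (-0.02). Ifi204 was called lower by 0.15, a call lost without active replicate 2 (-0.14) or 3 (-0.09) or inactive replicate 1 (-0.11) or 3 (-0.16). Ifi211 was called lower by 0.17, a call lost without active replicate 1 (-0.14) or 3 (-0.15) or inactive replicate 3 (-0.16). Within the cluster, 494 kb wide, 9 member regions had 1 rise and 4 falls, with a median of -0.12. Over all tested regions with a symbol 22.5% rose and 36.0% fell. Of 11 tested regions between the members 7 rose (30.9% of all tested regions rose), with a median of 0.54, and differences from these shares were not tested. These 7 include the promoter of Mndal, a gene of the same family whose symbol lies outside the rule (0.33). These genes, like the H2, Ifit, Ifitm and Gbp genes, belong to families of closely similar copies; how reads that fit several copies were counted is not given in the sources used here, so their values are uncertain.

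Antigen presentation held the largest change of all members at H2-K1. Of 15 regions 8 fell, 2 rose (H2-K1 and H2-Ke6) and 5 did not pass, against 36.0% lower and 22.5% higher over all regions with a symbol; the difference from these shares was not tested. The promoter of H2-K1, a heavy chain of classical class I (chromosome 17, 34218974 to 34219490), held 62, 71 and 46 reads in active and 11, 15 and 16 in inactive libraries (59.7 ± 12.7 against 14 ± 2.65, SD, n = 3), or 4.26-fold higher (limma log2 fold change 2.01, SE 0.22, adjusted p = 4.48e-10). The lowest active value was well above the highest inactive one. The promoter of H2-D1, the other classical heavy chain gene, did not pass (126, 140 and 154 against 142, 147 and 161; -0.10, interval -0.31 to 0.11), and its region at 4522 bp fell by 0.36 (96, 118 and 102 against 132, 144 and 129). B2m, the light chain shared by class I molecules, fell at its promoter from 364, 341 and 339 to 301, 284 and 272 (-0.28, adjusted p = 0.000768 by limma), with no overlap, though not relative to its window (-0.15, adjusted p = 0.0698 by limma). In active cells H2-K1 was thus higher while no other class I region rose.

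The regions next to H2-K1 did not rise. The nearest region before it, 7898 bp away, did not pass (0.14), and the nearest after it, the Ring1 promoter 23784 bp away, fell (-0.18). From H2-K1 to Tap2, 6 of 9 tested regions that are not members fell, with a median of -0.31. H2-Ke6, which carries the prefix but encodes a fatty acid enzyme, was called higher by 0.23 with overlapping groups (287, 323 and 336 against 233, 270 and 305), and lost the call without active replicate 3 (0.18) or inactive replicate 1 (0.13). In the same stretch, the class II peptide editor genes fell: H2-DMa held 608, 663 and 621 against 789, 824 and 850 reads (limma -0.38, SE 0.05, adjusted p = 4.88e-08) and H2-DMb1 15, 16 and 30 against 38, 36 and 35 (-0.87).

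No member region of the peptide pump or its helpers rose. The Tap1 promoter held 28, 30 and 19 reads against 24, 26 and 38 and did not pass (-0.18, interval -0.66 to 0.29). The region 1069 bp from Tap2 held 29, 44 and 21 against 53, 51 and 58 and fell by 0.83 (adjusted p = 0.000598 by limma). Tapbpl, a peptide editor of class I molecules related to tapasin, fell on chromosome 6 from 82, 80 and 101 to 36, 41 and 63 (limma -0.93, SE 0.17, adjusted p = 8.65e-06) and by 0.67 relative to its window. Of 5 nonclassical class I regions, H2-T24 fell by 0.54 (136, 164 and 161 against 220, 224 and 224) and H2-T22 by 0.23; the latter was lost without active replicate 1 (-0.17) or 3 (-0.17) or inactive replicate 1 (-0.21) or 3 (-0.24). H2-T23, H2-T3 and H2-M3 did not pass.

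**Figure D4:**
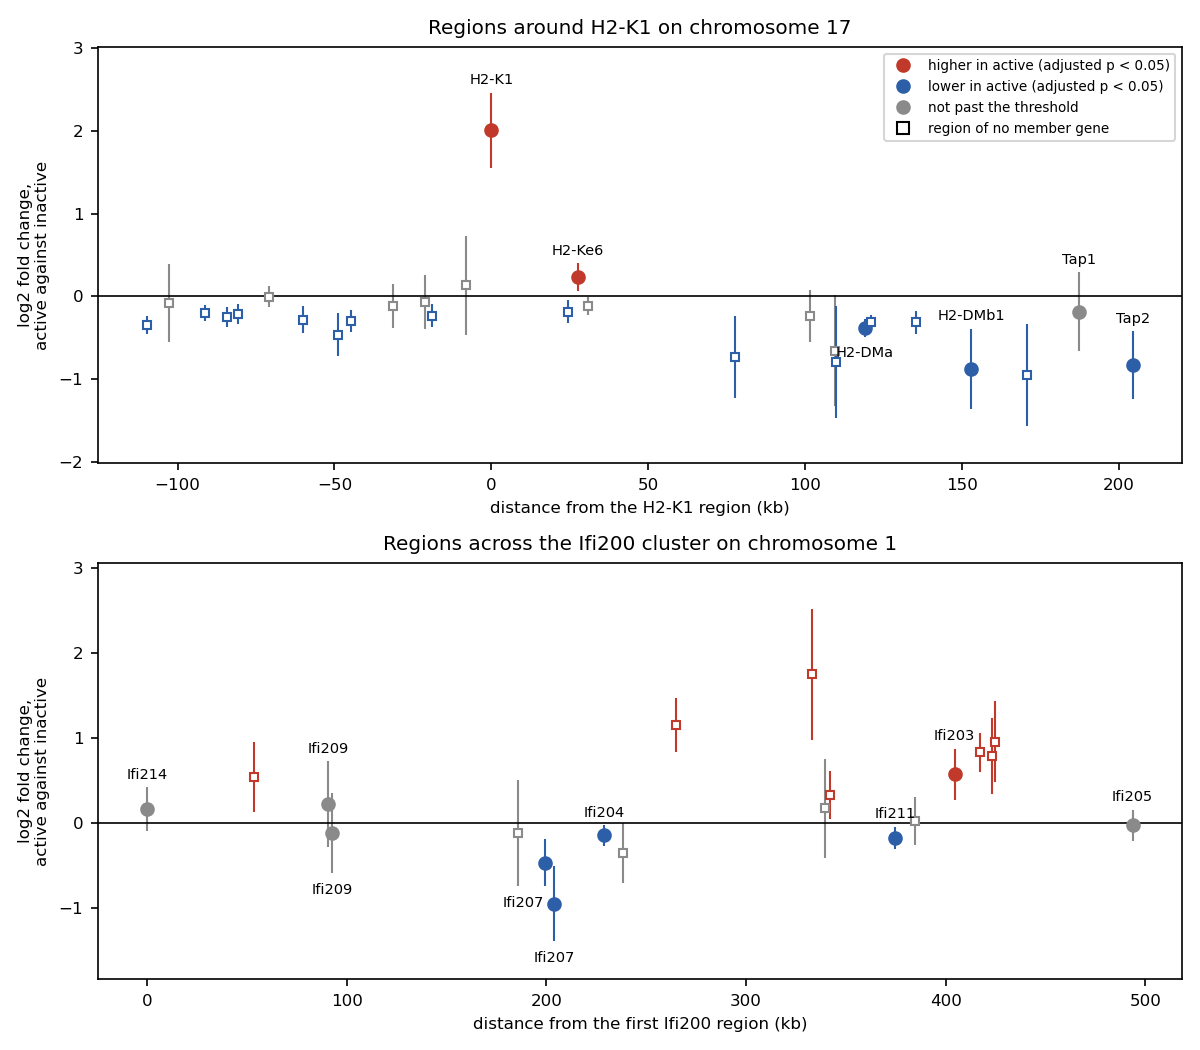
Log2 fold change with 95% confidence interval (y axis, active against inactive) against distance in kb (x axis) for regions around H2-K1 (upper) and across the Ifi200 cluster (lower); filled circles are members, open squares other regions. H2-K1 is high at 2.01 between neighbours near or below 0, and in the lower panel Ifi203 is the member above 0 that was called.

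A promoter and another tested region of the same gene could be compared in 16 member pairs. Ifit2, Ifitm10, Irf2bp2 and Irf2bpl entered more than once with the same promoter, so the 16 pairs are not independent. Of these 11 had the same sign, close to the share over all genes (1506 of 2162 pairs), and 7 differed by limma on the log2 ratio (43.8%, against 33.9% over all genes); this test was chosen after the data were seen. The clearest was Ifi30, with a rise of 0.53 at the promoter and a fall of 0.40 at 2885 bp (46, 55 and 45 against 72, 61 and 61), a difference of -0.93 ± 0.16 (SE, adjusted p = 0.00376 by limma). The fall at 2885 bp alone was lost without active replicate 1 (-0.37) or 3 (-0.35) or inactive replicate 1 (-0.33). At Irf2bpl, the regions at 1911 bp and 3789 bp did not share the promoter's rise (-0.16 and 0.02), and differed from it by -0.72 and -0.53.

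Member changes ran alongside those of their chromosomal surroundings. Over 87 tested members, the log2 fold change and the median of the 10 Mb window had a Pearson r of 0.51 and a Spearman rho of 0.56; over all 13817 tested regions with a symbol the values were 0.41 and 0.54. These regions share windows and libraries, and the member enters its own window's median. On chromosome 10, 3 of 3 members fell (median of all regions on the chromosome -0.15), on chromosome 19, 4 of 5 (-0.24) and on chromosome 7, 5 of 10 (-0.13), while on chromosome 12, 3 of 5 rose (0.50). Relative to windows, none of the 3 on chromosome 10 was called. Chromosome 1, with a median near 0 (0.01), had 4 falls and 1 rise among 10. Falls numbered 4 of 8 on chromosome 11 (-0.25), 6 of 13 on chromosome 17 (-0.13, with 2 rises), 3 of 8 on chromosome 8 (-0.11, with 1 rise) and 2 of 7 on chromosome 3 (-0.07). The share of all regions called on each chromosome was not counted, so these counts describe the members only. Over all tested regions with a symbol, on all chromosomes, 36.0% fell and 22.5% rose. On chromosome 16, none of 4 passed (-0.15), and on chromosome 6, 1 rose and 1 fell (0.31). Against windows, the largest departures were H2-K1 (2.17 relative to its window), Ifi27l2b (1.27), Ifi207 at its promoter (-0.99), Ifitm10 at its promoter (-0.95), Stat5a at its promoter (-0.87) and Usp18 (0.83). Relative to windows, 16 of the 46 called members lost their call or turned; besides those named above these were the promoters of Gbp3, H2-T22, Ifitm2, Isg20l2 and Irf9 and the regions of H2-D1 at 4522 bp, Ifi30 at 2885 bp and Ifit1bl2.

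**Figure D5:**
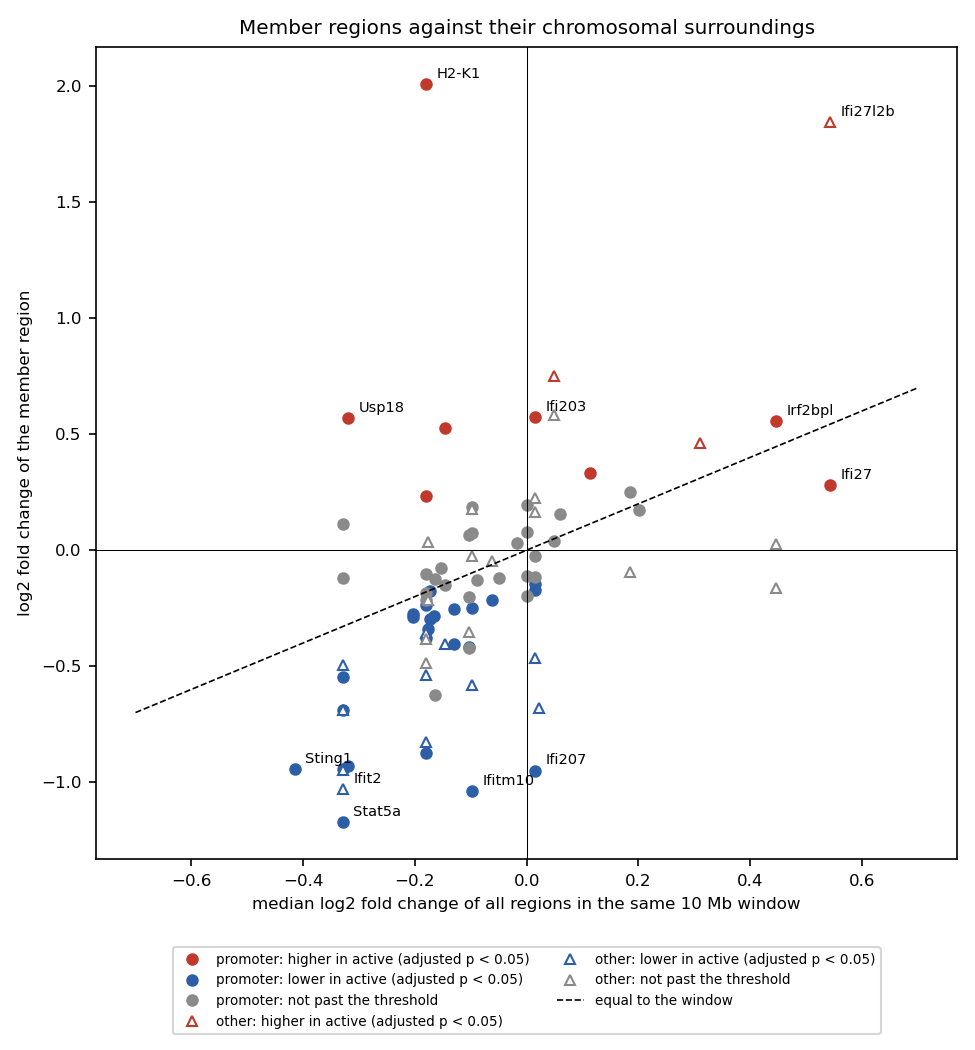
Log2 fold change of each of 87 tested member regions (y axis) against the median log2 fold change of all regions in its 10 Mb window (x axis); circles are promoters, triangles other regions, red higher, blue lower, and the dashed line marks equality. H2-K1 lies at 2.01 over a window at -0.18, while Irf2bpl (0.55) lies near its window (0.45).

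Promoters of genes with and without an ISRE core both fell more often than they rose, as did all promoters, of which 37.6% fell and 21.0% rose. Rises with the core (1 of 17) were below that share, and differences from these shares were not tested. Of 17 tested promoter regions of genes whose RefSeq promoter held the core, 8 fell and 1 (Ifi203) rose, with a median of -0.20; of 31 without it 13 fell and 5 rose, with a median of -0.13. For 11 further regions the promoter table had no entry. Genes with a GAS core gave 3 falls and 0 rises among 10 regions (median -0.21). Those without it gave 18 falls and 6 rises among 38 (median -0.17). A gene counted as holding a core if any of its RefSeq promoters did.

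Other genes of the pathway, from a list that lies outside the symbol rule, also fell more often than they rose. Of 50 promoters 27 fell, 8 rose and 15 did not pass, with a median of -0.19 (37.6% of all promoters fell and 21.0% rose). Signalling kinases differed: Tyk2, the kinase bound to Ifnar1, fell at its promoter from 375, 408 and 359 to 224, 228 and 201 (-0.80, adjusted p = 6.47e-12 by limma), though not relative to its window, while Jak1 held 391, 376 and 399 against 409, 368 and 395 (-0.01) and Jak2 fell by 0.17. Nlrc5, the activator of class I genes, fell (22, 12 and 15 against 29, 32 and 35, log2 fold change -0.97). Other listed genes of class I processing moved both ways. The Erap1 promoter region at 511 bp (0.32) and the Psme2 promoter (0.22) rose. The promoters of Calr (-0.27), Canx (-0.25) and Pdia3 (-0.19) fell. The Erap1 region at 398 bp, Psme1 and Psmb10 did not pass. None of these rises and falls at Erap1, Psme2, Calr, Canx and Pdia3 was called relative to its window. The promoter of Trim30a, an interferon-induced ubiquitin ligase family gene, fell, at 5, 2 and 1 reads against 47, 76 and 83 (-4.36, adjusted p = 6.56e-14 by limma). Lgals3bp (-2.50), Lgals9 (-1.37), Pml (-1.35) and Xaf1 (-1.28) also fell by at least 2-fold, and Ly6e rose by 1.46 (82, 65 and 71 against 20, 30 and 28). The chemokine gene Cxcl10, a classical interferon gamma target, rose by 0.47 at its promoter (158, 164 and 158 against 117, 114 and 115), a call lost relative to its window. Of 12 tested regions of these genes beyond promoters, 3 rose and 3 fell.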

How the data were processed

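ATAC-seq libraries of NIH3T3 cells with an active (3) or inactive (3) ribozyme were grouped by the knock-in label. The deposited table gives a score for each of 52957 regions: read totals scaled by the authors with 1 size factor per library, then rounded, as the values themselves show. Per the submitters' processing notes, the build was mm39 and the tools were DESeq2 1.36.0, featureCounts, Picard 3.1.1, STAR 2.7.11a and Trimmomatic 0.39, among others; for the peak caller, read shifting and reads that fit several places, the steps were not given in the sources used here. Libraries summed to 6433944 to 6548535 after scaling, with 3710000 to 8960000 reads estimated before it.

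Log2(value + 1) was fitted in R 4.3.3 by limma 3.58.1 (trend and robust empirical Bayes) for the 51253 regions whose mean was at least 10, without a block, with Benjamini-Hochberg adjustment over all of these and a threshold of 0.05. Log2 fold changes on this scale understate changes of low regions, and folds are ratios of group means. The fit was tested on simulated data. A permutation test with 3 against 3 libraries cannot go below p = 0.1, so none is given.

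The genes named were a core list (receptors, sensors, main STATs and IRFs, classical effectors, class I genes), the most open and most changed regions of each role, and all changes of at least 2-fold; others were chosen after their values were seen. The values of 1 member region are not reported here, though counts include it. Members and lists were chosen with earlier results of these data known. Alternatives were other pseudocounts, filters, normalization, window centring, plain limma, a replicate block, a 500 bp promoter limit and leaving out each library. Plots used matplotlib 3.10.9 with pandas 2.3.3, numpy 2.4.6 and Python 3.11.15.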

Additional observations from a re-analysis of the deposited data

How the results depend on the processing

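The counts of member promoters (8 higher, 24 lower) and other member regions (3 higher, 11 lower) stayed within 1.5 times under the pseudocounts, filters, quantile normalization and the 500 bp limit. Promoters called higher numbered 5 when each library was centred on the median of its 10 Mb window and 5 in limma without trend and robust settings; the cause was not tested. Without 1 library, promoters higher ranged from 6 to 8 and lower from 20 to 25, other regions higher from 2 to 3 and lower from 9 to 12. Of 46 called members, 34 kept call and direction without any 1 library and 24 under every alternative. Without trend and robust settings, 12 calls were lost: H2-Ke6, H2-T22, Ifi203, Ifi204, Ifi211, Ifi27, Ifit1bl2, Ifitm2, Irf2, Isg20l2, Oasl1 and Stat2. With quantile normalization, 6 were lost: H2-T22, Ifi204, Ifi211, Irf9, Oasl1 and Stat2.

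Signs turned as follows, mostly in regions that never passed. With quantile normalization Ifnz was -0.13, Irf7 -0.12 and Rigi -0.0065. Centred on the window median, the promoters of Parp10 (-0.046), Ifi27 (-0.31, called lower), Ifnz (-0.16), Ifnar2 (-0.021), Rigi (-0.16) and Stat3 (0.061) and the 3789 bp region of Irf2bpl (-0.49) turned. Relative to the window median of changes, added after seeing the data, those of H2-D1 (0.057), Ifi27 (-0.29, called lower), Ifnz (-0.051), Irf1 (0.022) and Stat3 (0.18, called higher), Irf2bpl at 3789 bp (-0.46) and Irf2 at 1386 bp (0.018) turned. Without 1 library, Ifnz ranged from -0.086 to 0.15, Irf2 at 1386 bp from -0.075 to 0.00046, Irf2bpl at 3789 bp from -0.051 to 0.070, Irf7 from -0.19 to 0.54, Mx2 at 929 bp from -0.45 to 0.052, Parp10 at 4180 bp from -0.24 to 0.026, Rigi from -0.031 to 0.095 and Tap1 from -0.31 to 0.012.

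With a replicate block the counts were 8, 24, 3 and 11. Deviations of libraries with the same number correlated at -0.0162 to 0.00137, and 1 of 3 active libraries correlated best with its own number, so the numbers were not taken as pairs. Depth limits regions with few reads, such as Irf7, Ifit1 and Tap1, whose intervals span both directions.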
